A study of Saccharomyces cerevisiae with 4 samples.

Results

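A pair of budding yeast strains that lack any guide was compared. One is the control of a dCas12e gene activator (byMM1736) and the other is the control of a denAsCas12a gene activator (byMM1777). Genes were kept where their counts averaged 10 or more across the 4 libraries, which left 6010 of the 6418 genes listed. The genes nearest to that limit were SNR79 with a mean of 10.2 counts inside it and tE(UUC)K with a mean of 9.5 counts outside it.

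All strains descend from CEN.PK2-1C, a haploid MATa laboratory strain that cannot make histidine (his3D1), leucine (leu2-3_112), uracil (ura3-52) or tryptophan (a trp1 allele) and carries MAL2-8c and SUC2. The strain byMM1736 carries a plasmid with a LEU2 marker, on which lexA operators and a truncated CYC1 core promoter drive the green fluorescent protein yEGFP, a plasmid with a URA3 marker that expresses a nuclease-dead Cas12e from the strong GPD promoter, and a plasmid with a TRP1 marker that expresses the coat protein fusion MCP-VP64 from the ADH1 promoter. The strain byMM1777 carries another LEU2 plasmid, whose content the plasmid list does not describe, a URA3 plasmid that expresses the Cas protein from the GPD promoter, which the labels call denAsCas12a and the plasmid list dAsCas12a, and the same MCP-VP64 plasmid. The paper describes yEGFP behind lexA operators and the truncated CYC1 core promoter in byMM1827, and names byMM1777 as its control without ScRNAs. Neither of them has a scaffold RNA (ScRNA) cassette, so the Cas protein has no guide and the activation domain has no RNA to dock on. The other strains are byMM1832, which is byMM1736 with a HIS3 plasmid of ScRNAs for the lexA operators and the GAL7 promoter, and byMM1827, which is byMM1777 with a HIS3 plasmid of ScRNAs for the lexA operators and the HED1 promoter. The cultures were grown overnight, diluted into fresh medium and grown again before RNA was extracted.

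A CRISPR activator of this kind joins a DNA-binding protein that cannot cut, a scaffold RNA with a guide and hairpins, and a hairpin-binding coat protein that brings an activation domain to a promoter. Type V effectors such as Cas12a and Cas12e recognise T-rich motifs next to their target. Their mRNAs, the reporter and MCP-VP64 are not analysed here. The controls show each Cas protein without its guide, and the question of the comparison is how far their transcriptomes differ before any promoter is targeted. Each strain was sequenced as 1 library, so no test between strains can be made. Ratios below are ratios of TPM (transcripts per 1e+06, which corrects for gene length and library size) with an exact 95% Clopper-Pearson interval, which covers counting error only. A strain effect, an effect of one culture and an effect of library preparation cannot be told apart.

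The library totals ran from 37275559 counts in byMM1777 to 54013763 counts in byMM1827, and byMM1736 had 50666124. All 7 MATa-specific genes on the list were expressed in both controls, with a summed level of 2324 TPM in byMM1736 and 2531 TPM in byMM1777. The 5 MATalpha-specific genes summed to 145 TPM in byMM1736 and 167 TPM in byMM1777, with none of the 5 at 0. The library of byMM1832 lay farthest from the others, with 492 genes (8.19%) at least 2-fold apart from byMM1777, 256 (4.26%) from byMM1827 and 206 (3.43%) from byMM1736. Among the other 3 libraries byMM1777 lay farthest out. In byMM1736, 37 genes (0.616%) differed at least 2-fold from byMM1827, although these strains carry different Cas proteins. In byMM1827, 84 genes (1.40%) differed at least 2-fold from byMM1777, although these share the Cas protein and the reporter background. With byMM1827 in place of byMM1777, a choice made after seeing the data, 14 genes were higher and 23 lower in byMM1736, so the main results are given below with the levels in all 4 libraries.

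Between the controls, 111 of 6010 genes (1.85%) lay at least 2-fold apart. They were 47 genes higher in byMM1736 (0.782%) and 64 genes lower in byMM1736 (1.06%). The 5th and 95th percentiles of the log2 ratio were -0.71 and 0.39. The median was -0.22 on the log2 scale, a ratio of 0.860, and 76.5% of genes had a ratio below 1. Scaling by TMM factors raised the median of all genes by 0.22 to 0.00 and changed the split to 78 higher and 29 lower, so directions near 1 are given relative to the median of all genes. Relative to ACT1, which moved the median by -0.20, the split was 27 higher and 183 lower. Where a list stands against the median of all genes is the same under each of these factors, but the sign of a list median between -0.22 and 0 turns with TMM factors and that of one between 0 and 0.20 turns relative to ACT1. The interval lay wholly past 2-fold for 35 genes (0.582%), 17 of them higher and 18 lower. The remaining 76 genes past 2-fold had intervals that reached inside it, and 47 of the 111 had a mean under 100 counts. The ratios closest to the limit were 0.500 for SRP21 inside it and 0.502 for BSC4 outside it.

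The circuit parts differed first at URA3, the orotidine phosphate decarboxylase gene that marks the Cas plasmids. URA3 was at 706 TPM in byMM1736, against 1494 TPM in byMM1777, a ratio of 0.473 (0.466 to 0.480). It was at 646 TPM in byMM1832 and 1195 TPM in byMM1827. Both strains with dCas12e were below both strains with denAsCas12a. The ratio of byMM1832 over byMM1827, 0.540, did not reach 2-fold, and with TMM factors the ratio between the controls does not reach it either. GEA2, the Arf exchange factor gene upstream of URA3, had a ratio of 0.673 (0.624 to 0.727), and TIM9, a mitochondrial import chaperone downstream of it, had one of 0.991 (0.937 to 1.05).

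YCL021W-A is a small open reading frame that lies near LEU2 in R64 with Ty genes between. YCL021W-A had 0 counts in byMM1736, against 365 counts in byMM1777. It had 0 counts in byMM1832 and 391 in byMM1827. With the floor of 3 counts per library, it was 169.6-fold lower in byMM1736, and the counting interval of the ratio was 0 to 0.00729. Its counts went with the Cas background in all 4 libraries. The LEU2 plasmids, the Cas proteins and the clones cannot be told apart here. LEU2, an isopropylmalate dehydrogenase of leucine synthesis, was at 825 TPM in byMM1736 and 666 TPM in byMM1777, a ratio of 1.24 (1.22 to 1.26). NFS1, the cysteine desulfurase gene on the other side of LEU2, had a ratio of 1.13 (1.09 to 1.16).

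TRP1, which marks the MCP-VP64 plasmid common to both strains, was at 399 TPM in byMM1736 and 407 TPM in byMM1777, a ratio of 0.981 (0.956 to 1.01). HIS3, whose plasmid neither control carries, was at 255 TPM in byMM1736 and 207 TPM in byMM1777. It was at 2770 TPM in byMM1832 and 5309 TPM in byMM1827, the strains that carry the HIS3 plasmid. The HIS3 levels followed the labels. HED1, a meiotic gene, was at 16.6 TPM in byMM1736 and 15.8 TPM in byMM1777, with a ratio of 1.05 (0.904 to 1.22). GAL7, a galactose-degrading enzyme, was at 2.05 TPM in byMM1736 and 1.62 TPM in byMM1777, with a ratio of 1.27 (0.932 to 1.73). On the TPM scale the intervals of both target genes reached across 1. With TMM factors they did not, as the ratio was 1.22 (1.05 to 1.43) for HED1 and 1.47 (1.09 to 2.02) for GAL7, so whether either differed depends on the scaling. The genes whose promoters drive the constructs were moderately higher in byMM1736, with TDH3 (the GPD promoter's own gene) at a ratio of 1.31 (1.30 to 1.31), ADH1 at 1.22 (1.21 to 1.23) and CYC1 at 1.23. The actin gene ACT1 had a ratio of 1.15 (1.14 to 1.16). Only 56.8% of the 31-base words of TDH3 and 81.6% of those of ADH1 are unique in the genome, so their counts are uncertain to that extent.

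**Figure D1:**
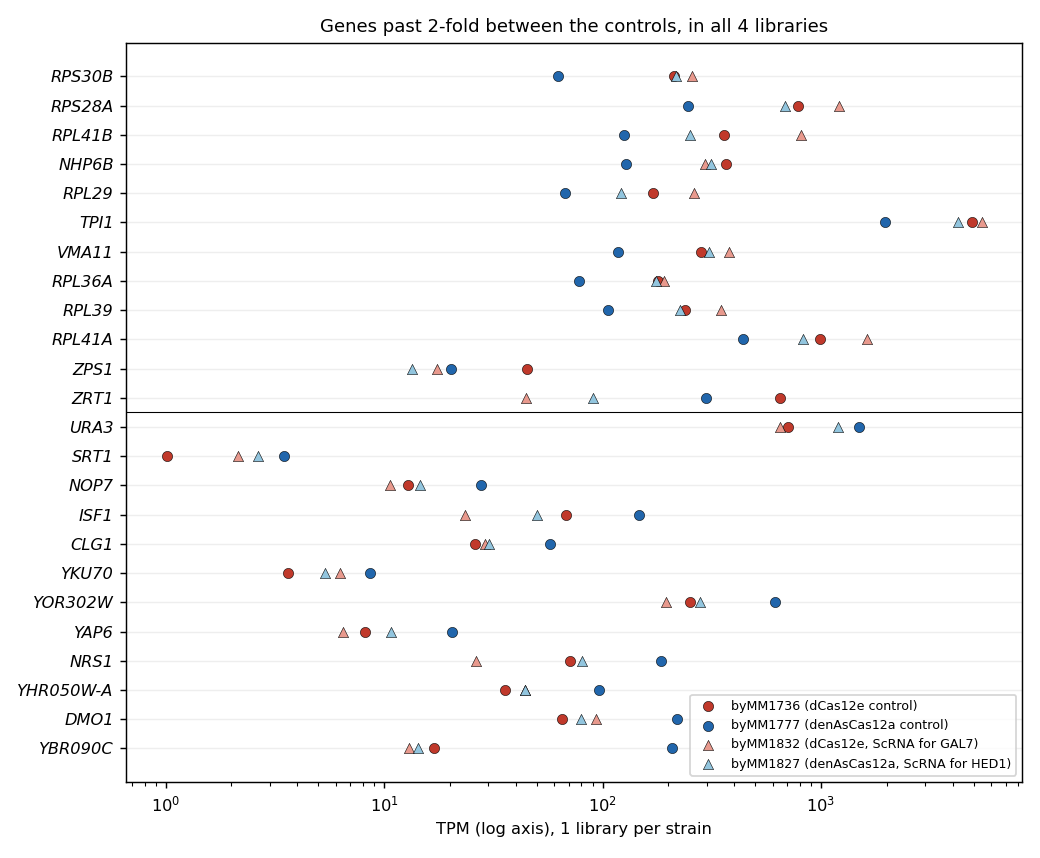
TPM on a log axis of 24 genes past 2-fold between the controls, 12 higher in byMM1736 above the line and 12 lower below it. Circles are the controls and triangles the strains with ScRNAs, 1 library each. For TPI1, RPS30B and YBR090C the point of byMM1777 lies alone, while for URA3 the dCas12e strains lie below the denAsCas12a strains.

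Genes past 2-fold in either direction were mostly short, and most had few counts. Among the 601 genes with the fewest counts, byMM1736 was higher past 2-fold in 28 and lower in 39. Among the 601 shortest genes, up to 366 bases, it was higher in 33 and lower in 29. Of all genes, 0.782% were higher and 1.06% lower. The 601 shortest genes had a median log2 ratio of 0.00, against -0.28 for the 601 genes between 1710 and 2095 bases. For protein-coding genes averaging 100 counts or more, the median log2 ratio was 0.19 for the 54 genes under 200 bases, 0.06 for the 153 genes from 200 to 300 bases, -0.25 for the 2177 genes from 1000 to 2000 bases and -0.24 for the 1319 longer genes. Past 2-fold, 6 of the 54 were higher and 3 lower, and 2 of the 2177 were higher and 13 lower. With more counts the lower genes were thus not mostly short. GC content moved with the ratio as well. The median log2 ratio was -0.40 in the 599 genes poorest in G and C, with 8 higher and 21 lower, and -0.08 in the 599 richest, with 9 higher and 5 lower. Those 5 do not exceed the 1.06% of all genes that were lower. In byMM1832 over byMM1827 the 599 poorest and the 599 richest genes had medians of -0.08 and -0.04. The ratio moved with abundance too. By mean TPM the median log2 ratio of byMM1736 over byMM1777 was -0.28 in the 601 least abundant genes, -0.34 in the next 601 and -0.02 in the 601 most abundant. What part length, base composition and abundance had in the single genes and gene lists was not tested.

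**Figure D2:**
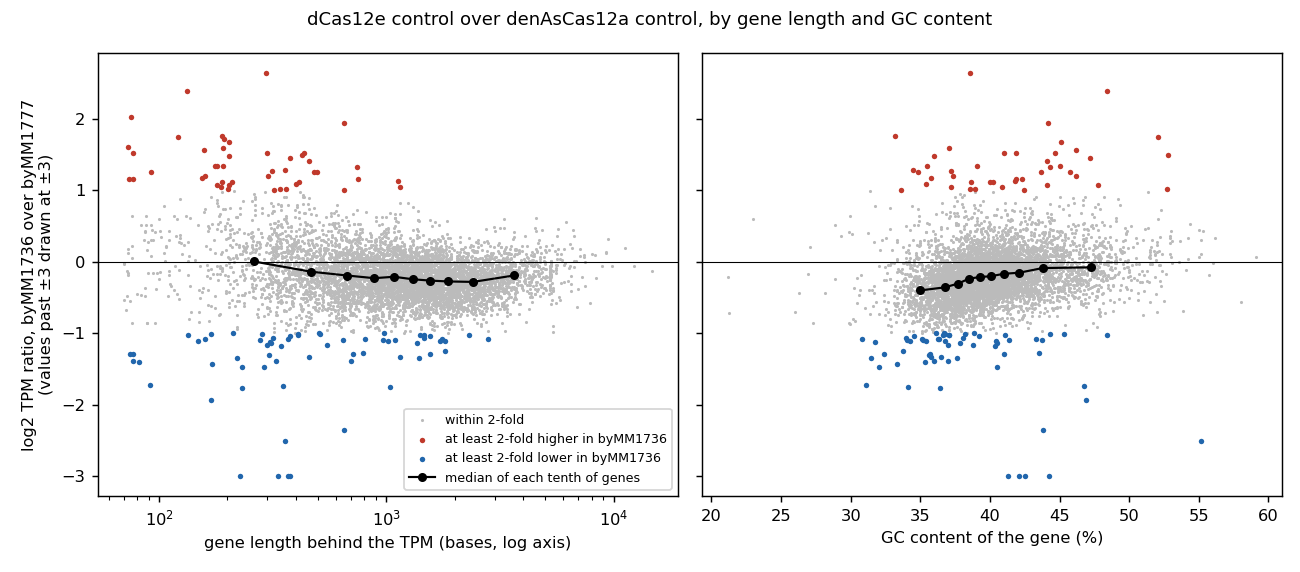
Log2 TPM ratio of byMM1736 over byMM1777 for 6010 genes, against gene length on a log axis (left) and GC content (right, for the genes matched to the reference). Red and blue points are genes past 2-fold, values past 3 are drawn at 3, and the black line joins the medians of 10 equal groups of genes. The medians run between 0.00 and -0.28 over length and between -0.40 and -0.08 over GC content.

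Ribosomal protein genes supply the structural proteins of both ribosomal subunits, and yeast holds most of them as duplicated pairs. Of 137 such genes, 8 were at least 2-fold higher in byMM1736 and 0 were lower, against 0.782% and 1.06% of all genes. Their median log2 ratio was 0.17 (which turns negative relative to ACT1), against -0.22 for all genes, and 18 of the 137 lay below the median of all genes. Shorter members stood higher. The 19 members under 300 bases had a median of 0.52 with 6 past 2-fold, the 89 members from 300 to 600 bases one of 0.16 with 2 past 2-fold, and the 29 longer members one of 0.15 with 0 past 2-fold. The large subunit, with 81 genes, had a median of 0.25 and the small subunit, with 56, one of 0.11.

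RPS30B, a small-subunit protein made as a fusion with a ubiquitin-like part in mammals, was at 213 TPM in byMM1736, against 62.8 TPM in byMM1777, a ratio of 3.39 (3.06 to 3.75). Its levels in byMM1832 and byMM1827 were 255 and 217 TPM. The level of byMM1777 was the odd one out. Its paralog RPS30A was at 759 TPM in byMM1736 and 829 TPM in byMM1777, so that the summed level of the pair had a ratio of 1.09. RPS28A, another small-subunit gene, was at 788 TPM in byMM1736, against 247 TPM in byMM1777, a ratio of 3.19 (3.04 to 3.36), while RPS28B was at 49.9 TPM in byMM1736 and 50.4 TPM in byMM1777. Here the A copy holds nearly all of the expression, and the pair's summed level had a ratio of 2.82. RPL36A, RPL39, RPL29 and RPP1B, which belong to the large subunit and its stalk, had ratios of 2.30, 2.26, 2.53 and 2.01. Summed with its paralog, the level had a ratio of 1.35 for RPL36A with RPL36B and 1.60 for RPP1B with RPP1A. RPL29 was also past 2-fold in byMM1832 over byMM1827, at 2.17, while RPL36A was at 1.09, RPL39 at 1.54 and RPP1B at 1.96. Each of these genes had its lowest level in byMM1777.

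RPL41A and RPL41B encode the shortest ribosomal protein and are shown because their coding sequences, taken from the R64 assembly of RefSeq, differ at 1 base, marked by the capital. Reads of this part cannot be split between them with certainty.
RPL41A (chrIV:130407-130484, minus strand): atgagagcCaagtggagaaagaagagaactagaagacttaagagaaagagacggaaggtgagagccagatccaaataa
RPL41B (chrIV:221724-221801, minus strand): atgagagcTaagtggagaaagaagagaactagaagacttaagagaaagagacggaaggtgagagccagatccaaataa
RPL41A was at 987 TPM in byMM1736, against 441 TPM in byMM1777, a ratio of 2.24 (2.10 to 2.39). RPL41B was at 361 TPM in byMM1736, against 126 TPM in byMM1777, a ratio of 2.87 (2.56 to 3.23). Taken as a pair, which does not depend on how the reads were split, their summed level had a ratio of 2.38. The ribosomal protein genes had a median of 0.77 with 19 higher and 0 lower past 2-fold in byMM1832 over byMM1827. All genes had a median of -0.03 there, with 0.948% higher and 3.31% lower. In byMM1832 RPL41B was at 810 TPM, against 252 TPM in byMM1827, so RPL41B was past 2-fold in both comparisons of a dCas12e with a denAsCas12a strain.

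Small nucleolar and other small nuclear RNAs guide the modification and processing of ribosomal RNA or act in splicing, and they are not polyadenylated when mature. Of the 83 listed, 66 passed the count limit, and 10 of them were at least 2-fold higher in byMM1736 and 3 lower, against 0.782% and 1.06% of all genes. Their levels were low. SNR190 had 346 counts in byMM1736, against 115 in byMM1777, a ratio of 2.16 (1.74 to 2.69), and SNR43 had 287 counts in byMM1736, against 95 in byMM1777, a ratio of 2.17 (1.71 to 2.76). SNR128, or U14, had 22 counts in byMM1736, against 3 in byMM1777, with a ratio of 5.26 and an interval of 1.58 to 27.5. The lower members were SNR71, SNR67 and SNR44, the last of which overlaps RPS22B on the same strand. Ribosomal RNA rows took 0.858% of all counts in byMM1736 and 1.38% in byMM1777, while the short RDN58-2 (5.8S) had 161 counts in byMM1736, against 39 in byMM1777, a ratio of 2.96 (2.08 to 4.32). Copies of the ribosomal RNA genes are near identical, so the counts of one copy are uncertain.

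Ribosome biogenesis genes, which encode the factors that process ribosomal RNA and assemble the subunits, lay on the other side. Of 89, 0 were higher and 4 were at least 2-fold lower in byMM1736, against 0.782% and 1.06% of all genes. The median log2 ratio was -0.40, below the -0.22 of all genes, and 19 of the 89 lay above the median of all genes. The 4 lower genes were UTP9 and SOF1 of the small-subunit processome, NOP7 of the complex that matures the large subunit, and the helicase MAK5. NOP7 was at 12.9 TPM in byMM1736, against 27.8 TPM in byMM1777, a ratio of 0.463 (0.431 to 0.498), and it was at 10.6 TPM in byMM1832 and 14.6 TPM in byMM1827. UTP9 had a ratio of 0.461 (0.421 to 0.505), SOF1 one of 0.477 (0.438 to 0.519) and MAK5 one of 0.493 (0.452 to 0.539). With TMM factors none of the 4 stays past 2-fold. In byMM1832 over byMM1827 the list had a median of -0.14 with 0 genes past 2-fold either way, while the median of all genes was -0.03.

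These genes are known to share 2 promoter motifs in yeast, PAC (searched as GATGAG) and RRPE (searched as AAAAATTT), looked for on both strands in the 300 bases before the start codon. PAC was found before 92.1% of the 89 genes and 19.1% of all 6021 protein-coding genes of R64, RRPE before 84.3% and 15.1%, and both before 79.8% and 5.58%. The stretches that hold the PAC match nearest to the start codon of the 4 lower genes are shown with that match and any RRPE match near it in capitals, written along the strand of the gene.
NOP7 (chrVII:695263-695338, plus strand): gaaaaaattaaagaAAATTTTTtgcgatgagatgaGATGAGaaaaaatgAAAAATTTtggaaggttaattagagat
MAK5 (chrII:528163-528238, plus strand): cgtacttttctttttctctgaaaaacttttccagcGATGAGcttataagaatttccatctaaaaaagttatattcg
SOF1 (chrXII:127406-127481, plus strand): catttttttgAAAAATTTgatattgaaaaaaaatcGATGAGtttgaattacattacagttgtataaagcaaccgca
UTP9 (chrVIII:491787-491862, plus strand): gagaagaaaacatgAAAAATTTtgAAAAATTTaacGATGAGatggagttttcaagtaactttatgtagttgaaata
The ribosomal protein genes, which lay higher, held PAC in 11.7% and RRPE in 13.1% of the same windows. A match describes the sequence and is no measurement of binding.

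No cell cycle gene passed 2-fold. The 19 genes, cyclins, their inhibitors and regulators, had a median log2 ratio of -0.47, near the lower quartile of all genes (-0.42), and 16 of the 19 lay below the median of all genes. CLB1, a mitotic cyclin, was at 24.4 TPM in byMM1736, against 40.8 TPM in byMM1777, a ratio of 0.600 (0.563 to 0.639). CLN3, the G1 cyclin that responds to growth, had a ratio of 0.640 (0.615 to 0.666) and SIC1, an inhibitor of the B-type cyclin kinase, one of 0.629 (0.609 to 0.650). The S-phase cyclin CLB5 went the other way, with a ratio of 1.23 (1.14 to 1.33). All 8 cell separation genes, which daughter cells use to cut the septum, lay below the median of all genes, with a median of -0.47. The endoglucanase SCW11 had the lowest ratio of them, 0.550 (0.528 to 0.573), and the chitinase CTS1 was at 216 TPM in byMM1736 and 273 TPM in byMM1777. In byMM1832 over byMM1827, 4 of these 8 and 4 of the 19 cell cycle genes were at least 2-fold lower, against 3.31% of all genes there. Of 10 histone genes 0 passed 2-fold between the controls, with a median of 0.12, HTA2 at a ratio of 1.64 (1.56 to 1.74) and HHF1 at 0.811 (0.776 to 0.848). The histone genes had a median of -0.73 with 2 lower in byMM1832 over byMM1827, against -0.03 and 3.31% for all genes.

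Glycolysis mRNAs are among the most abundant in yeast. TPI1, triose phosphate isomerase, was at 4898 TPM in byMM1736, against 1952 TPM in byMM1777, a ratio of 2.51 (2.49 to 2.53). It was at 5438 TPM in byMM1832 and 4233 TPM in byMM1827, and byMM1777 lay below the rest. PGK1, phosphoglycerate kinase, had a ratio of 1.76 (1.75 to 1.77) and the enolase ENO2 one of 1.71 (1.70 to 1.72). TPI1 was the 1 gene of the 28 on the glycolysis and fermentation list past 2-fold, against 1.85% of all genes either way. Of the 28, 26 lay above the median of all genes, with a median of 0.10. The 601 most abundant genes had a median log2 ratio of -0.02. The pyruvate kinase CDC19, the last enzyme of the pathway, was at 6426 TPM in byMM1736 and 7448 TPM in byMM1777, a ratio of 0.863. Other abundant mRNAs past 1.5-fold were ACB1, an acyl-CoA carrier (1.83), HOR7, a small stress-related protein (1.81), TSA1, a peroxiredoxin (1.61), and, lower in byMM1736, DDR2, a stress gene (0.601), and PNC1, a nicotinamidase (0.654).

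Respiration genes, 47 in all, had a median log2 ratio of 0.09, with 41 above the median of all genes. Only 1 of them was past 2-fold, against 1.85% of all genes either way. That gene was QCR8, a subunit of the cytochrome bc1 complex, with 26 counts in byMM1736 and 3 in byMM1777. Its ratio was 6.22 with an interval of 1.91 to 32.1. The row of QCR8 was near 0 in every library, at 1.67 and 0.266 TPM in byMM1736 and byMM1777, whereas QCR7 of the same complex was at 1048 TPM in byMM1736 and 1560 TPM in byMM1777. COX4, a cytochrome oxidase subunit, had a ratio of 1.59 (1.54 to 1.64). Gluconeogenesis and acetate genes, used when sugar is short, had a median of -0.37 over 24 genes. Of these, 0 were higher and 1 lower, against 0.782% and 1.06% of all genes. The lower one was SFC1, a mitochondrial succinate and fumarate carrier. SFC1 was at 4.66 TPM in byMM1736, against 10.02 TPM in byMM1777, a ratio of 0.466 (0.394 to 0.550). It was past 2-fold in byMM1832 over byMM1827 too, at 0.378. In that pair the list had a median of -1.19 with 15 lower, against -0.03 and 3.31% for all genes. The 33 general stress genes had a median of -0.33, with 0 higher and 1 lower, where 1.06% of all genes were lower. In byMM1832 over byMM1827 their median was -0.90 with 15 lower, where 3.31% of all genes were lower. The gene lower between the controls was CYC7, the minor form of cytochrome c, at 4.54 TPM in byMM1736 and 10.2 TPM in byMM1777.

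**Figure D3:**
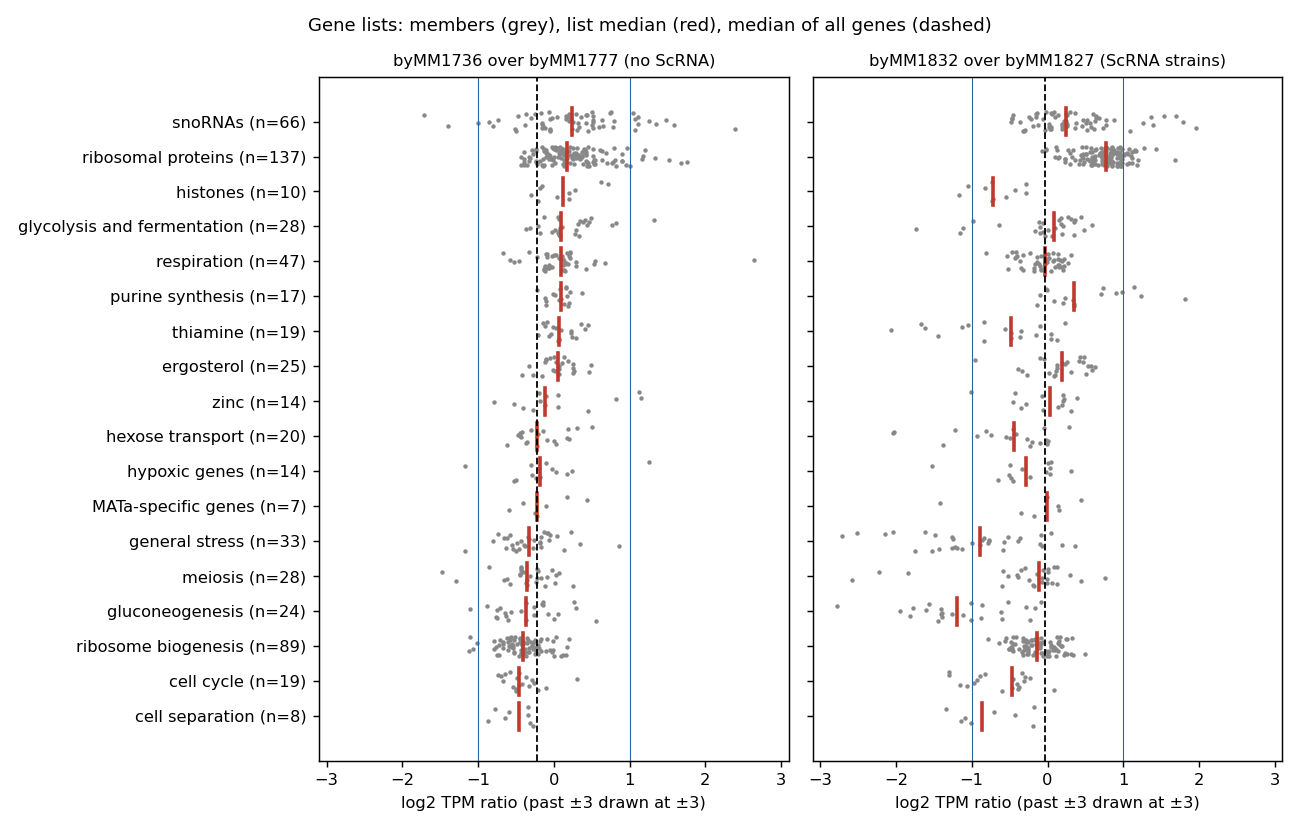
Log2 TPM ratio of the members of 18 gene lists, for byMM1736 over byMM1777 (left) and byMM1832 over byMM1827 (right). Grey points are genes, red bars list medians, the dashed line the median of all genes and the thin lines 2-fold, with values past 3 drawn at 3. On the left the snoRNAs (0.24) and ribosomal proteins (0.17, negative relative to ACT1) have the highest medians among the lists drawn and cell cycle and cell separation genes (both -0.47) the lowest.

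Zinc genes held 2 of the higher genes, against 0.782% of all genes, among 14 listed, with 0 lower. ZRT1, the high-affinity zinc transporter, was at 651 TPM in byMM1736, against 299 TPM in byMM1777, a ratio of 2.18 (2.14 to 2.22). It was at 44.7 TPM in byMM1832 and 90.3 TPM in byMM1827, both well below either control. ZPS1, a cell wall protein made when zinc is low, was at 44.9 TPM in byMM1736, against 20.1 TPM in byMM1777, a ratio of 2.23 (2.02 to 2.45). The levels of ZPS1 were 17.5 TPM in byMM1832 and 13.4 TPM in byMM1827, so byMM1736 was the highest of the 4 for both genes. The alcohol dehydrogenase ADH4 of the same list had a log2 ratio of 0.82, while the vacuolar zinc transporter COT1 was lower, with a ratio of 0.579 (0.554 to 0.604). ZAP1, the zinc-sensing activator, had a log2 ratio of -0.11.

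Zap1 is known to bind a palindrome searched here as ACCTT, any base, then AAGGT, in the 500 bases before the start codon. It was found before ZRT1 and ZRG17, which is 2 of the 14 zinc genes, and before 0.149% of all protein-coding genes. Both are shown with the match in capitals, since they held the same letters and differed in ratio. The log2 ratio was 1.12 for ZRT1 and -0.28 for ZRG17, a zinc transporter of the secretory pathway.
ZRT1 (chrVII:20754-20804, plus strand): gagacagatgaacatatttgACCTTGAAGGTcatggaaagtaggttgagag
ZRG17 (chrXIV:699485-699535, minus strand): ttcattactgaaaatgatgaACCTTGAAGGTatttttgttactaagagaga

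Of 22 tRNA genes inside the count limit, 3 were higher and 2 lower past 2-fold, all with 28 counts or fewer in either control. Of the 28 genes on the meiosis list 0 were higher and 2 lower. Over all genes the shares were 0.782% higher and 1.06% lower. SAE3 had 10 counts in byMM1736, against 20 in byMM1777, a ratio of 0.359 (0.150 to 0.803). The septin SPR3 had 36 counts in byMM1736, against 63 in byMM1777, a ratio of 0.410 (0.264 to 0.627). Both intervals reached inside 2-fold. HOP2, at 2.01 (0.947 to 4.63), and SPO19, at 0.383 (0.140 to 0.961), were past 2-fold but are not on that list. Purine synthesis (17 genes), thiamine (19), ergosterol (25), guanine nucleotide (7), hexose transport (20) and galactose (7) genes had 0 past 2-fold either way, with medians between -0.22 and 0.09. HXT1, the low-affinity glucose transporter, was the highest hexose transporter, with a ratio of 1.42 (1.39 to 1.45). The thiamine genes all lay above the median of all genes, with THI5, one of a family of near-identical genes whose single counts are uncertain, at a ratio of 1.37 (1.33 to 1.41). In byMM1832 over byMM1827 the same list had a median of -0.49 and 6 genes at least 2-fold lower, against -0.03 and 3.31% for all genes. The hypoxic list of 14 genes gave ANB1 (50 counts in byMM1736, against 15 in byMM1777) as higher and CYC7 as lower.

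Several of the largest differences fell on genes that overlap another gene. Of 248 genes that overlap an annotated neighbour in R64, 16 (6.45%) were past 2-fold, against 1.55% of the 5738 genes that do not. The labels do not say whether strand was used in counting. YBR090C, an open reading frame of unknown function, was at 17.0 TPM in byMM1736, against 208 TPM in byMM1777, a ratio of 0.0819 (0.0729 to 0.0919). It was at 13.0 TPM in byMM1832 and 14.3 TPM in byMM1827. NHP6B, a high-mobility group protein that bends DNA, overlaps YBR090C by 157 bases on the same strand and was at 369 TPM in byMM1736, against 128 TPM in byMM1777, a ratio of 2.88 (2.72 to 3.05). Summed over the pair, the counts scaled as TPM had a ratio of 1.02. NHP6B took 94.6% of the pair's counts in byMM1736, 33.4% in byMM1777, 94.9% in byMM1832 and 94.7% in byMM1827. The pair as a whole did not differ past 2-fold, and only byMM1777 divided it otherwise.

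YEL076C and YEL076C-A, subtelomeric open reading frames that overlap by 651 bases and hold no unique 31-base words, behaved likewise. YEL076C took 16.2% of the pair's counts in byMM1736, 79.1% in byMM1777, 18.0% in byMM1832 and 19.5% in byMM1827, and the summed pair had a ratio of 0.953. CPP2 had 0 counts in byMM1736, against 229 in byMM1777, but it had 193 counts in byMM1832 and 76 in byMM1827. At the floor of 3 counts it was 106-fold lower in byMM1736, and the interval of the ratio was 0 to 0.0116. It overlaps YDR209C by 228 bases on the opposite strand, and YDR209C was at 1127 TPM in byMM1736, against 519 TPM in byMM1777, a ratio of 2.17 (2.12 to 2.23). YPR203W, a subtelomeric frame with no unique 31-base word, had 2 counts in byMM1736 and 66 in byMM1777, a ratio of 0.0217 from these counts with an interval of 0.00258 to 0.0817. YPR053C overlaps NHP6A by 187 bases on the same strand and had a ratio of 2.65 (2.40 to 2.93), with NHP6A at 1.32 (1.27 to 1.38). The values of these genes are uncertain one by one. Of all 13 overlapping pairs that hold a gene past 2-fold, 7 had ratios on opposite sides of 1. On this scale 76.5% of all genes had a ratio below 1, so that number depends on the scaling. In 3 of the pairs both members were past 2-fold, in opposite ways.

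**Figure D4:**
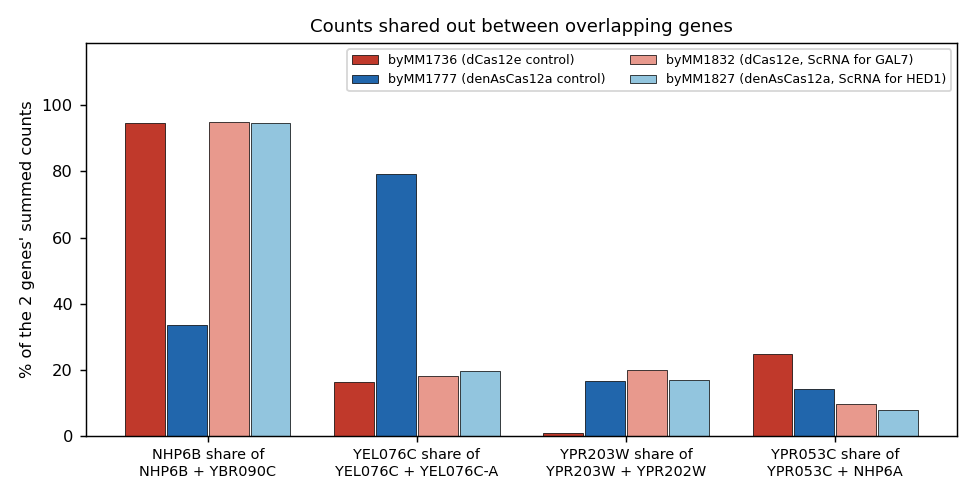
Share of the summed counts of 4 overlapping gene pairs that was assigned to the first-named gene, in percent, with 1 bar per library. For NHP6B (33.4%) and YEL076C (79.1%) byMM1777 stands apart from the other 3 libraries, and for YPR203W (0.714%) byMM1736 does.

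Among the other lower genes, DMO1 (YJR120W) lies just upstream of ATP2, the beta subunit of the ATP synthase. DMO1 was at 65.5 TPM in byMM1736, against 219 TPM in byMM1777, a ratio of 0.299 (0.280 to 0.320), while ATP2 was at 1621 TPM in byMM1736 and 1654 TPM in byMM1777. YOR302W, the upstream open reading frame whose peptide regulates CPA1, was at 252 TPM in byMM1736, against 616 TPM in byMM1777, a ratio of 0.409 (0.379 to 0.442), and CPA1 itself, a subunit of the carbamoyl phosphate synthetase of arginine synthesis, had a ratio of 0.936 (0.920 to 0.951). YHR050W-A, between SMF2 and COX6, had a ratio of 0.371 (0.324 to 0.426) and its neighbours ones of 0.879 and 1.11. In each of these 3 places the short frame was lower in byMM1736 while the gene downstream had a ratio between 0.936 and 1.11. In byMM1832 and byMM1827 DMO1 was at 93.2 and 79.5 TPM and YOR302W at 194 and 280 TPM. YHR050W-A was at 35.7 TPM in byMM1736, 96.2 TPM in byMM1777 and 44.1 TPM in both ScRNA strains. All 3 frames thus had their highest level in byMM1777. YAP6, a transcription factor of the Yap family, was at 8.16 TPM in byMM1736, against 20.5 TPM in byMM1777, a ratio of 0.398 (0.356 to 0.445). NRS1 had a ratio of 0.382 (0.356 to 0.409) and was also lower in byMM1832 over byMM1827, at 0.326. Its levels were 70.7 TPM in byMM1736, 185 TPM in byMM1777, 26.2 TPM in byMM1832 and 80.5 TPM in byMM1827. YKU70, of the Ku complex that binds DNA ends (0.422), SRT1, a cis-prenyltransferase (0.295), CLG1, a cyclin-like protein that binds Pho85 (0.453), ISF1 (0.462), OCA4 (0.469) and YLR162W (0.175) were further lower genes whose interval lay wholly past 2-fold and that overlap no other gene. Of all the libraries, byMM1777 had the highest level of each of these genes. VMA11, a subunit of the vacuolar proton pump, and AAD15, a putative aryl-alcohol dehydrogenase with close paralogs and so an uncertain count, were among the higher, at 2.40 (2.29 to 2.52) and 2.87 (2.02 to 4.17). Both VMA11 and AAD15 had their lowest level in byMM1777.

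The strains with ScRNAs allow the same contrast of Cas proteins in libraries that the control comparison does not use, though their guides and targets differ too. In byMM1832 over byMM1827, 256 genes were past 2-fold, 57 higher (0.948%) and 199 lower (3.31%). Of the 47 genes higher in byMM1736, 6 were also at least 2-fold higher in byMM1832, and of the 64 lower, 13 were also lower. The 19 genes are 17.1% of the control differences and 7.42% of those between the ScRNA strains. Among the 6 higher were RPL41B, RPL29 and PRM10, a pheromone-regulated membrane protein (2.07 between the controls and 2.58 between the ScRNA strains). Among the 13 lower were YCL021W-A, NRS1, ISF1, SFC1, CYC7 and SAE3, a meiotic recombination protein. With a mean of at least 100 counts 8 of the 19 stay. The sign was the same for 34 of the 47 and 41 of the 64. Across all 6010 genes the log2 ratios of the pairs had a Pearson r of 0.29 and a Spearman rho of 0.32, given as a description, since genes are not independent replicates.

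**Figure D5:**
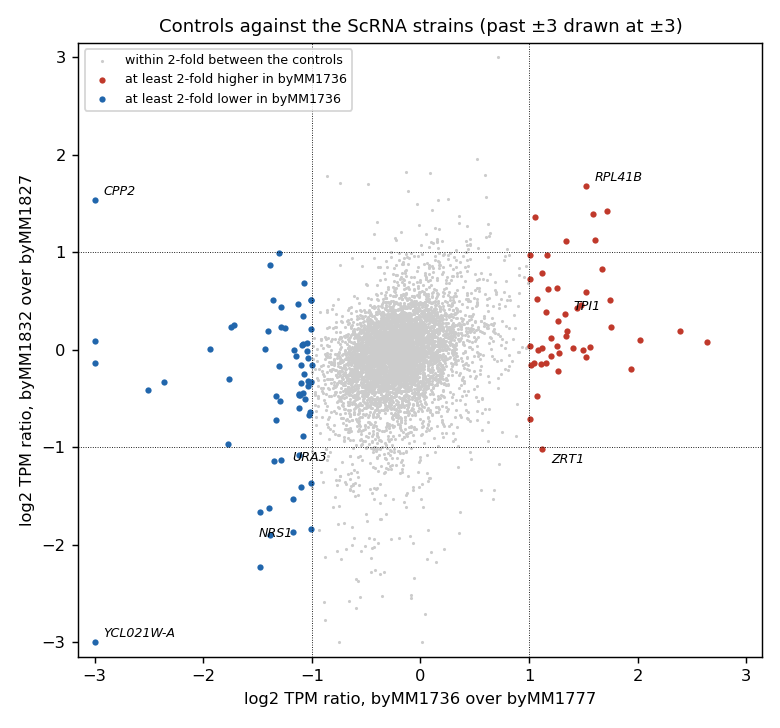
Log2 TPM ratio of byMM1832 over byMM1827 against that of byMM1736 over byMM1777 for 6010 genes, with dotted lines at 2-fold and values past 3 drawn at 3. Red and blue points are past 2-fold between the controls. Of these 111 genes, 19 lie past 2-fold the same way on both axes, and ZRT1 and CPP2 lie past it in opposite ways.

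The ScRNA strains also show which control a gene's level in them lies nearer to on the log2 scale. Of the 47 genes higher in byMM1736, 39 had both byMM1827 and byMM1832 nearer to byMM1736 and 6 had both nearer to byMM1777. In 1 gene each was nearer to the control of its own Cas protein, and in 1 to that of the other. Of the 64 lower genes these counts were 30, 12, 15 and 7. Among all 111, byMM1777 was the lowest or highest of the 4 libraries for 42 of the 47 and 55 of the 64, and byMM1736 for 14 and 39. These counts are a description, as the 111 genes were picked for the distance between the controls. YCL021W-A was split by Cas background, while for YBR090C, TPI1, RPS30B and RPS28A the other 3 libraries all lay on the same side of byMM1777.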

How the data were processed

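The deposited count table holds the authors' whole-number read counts per gene, and the deposited TPM table holds the authors' length-corrected transcript levels per gene. The submitters' processing notes name FastQC, Trimmomatic, HISAT2, bedtools, StringTie and DESeq2, with versions and genome build not given in the sources used here. RNA was extracted with Trizol, and an mRNA library kit gave 1 library per strain. Each table holds 2 further columns of strains that are no samples here, which were not used. Deposited tables of the authors' own comparisons hold fold changes and p-values and were not used.

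Ratios were computed from counts and the TPM per count of each gene with Python 3.11.15, pandas 2.3.3 and scipy 1.17.1. A library under 3 counts was set to 3 for calling and for ratios against 0. Intervals use the actual counts. A gene was called past 2-fold from the ratio alone. There is no replicate, so no model was fitted, and edgeR 4.0.16 and DESeq2 1.42.0 gave scaling factors only. The ratio and interval code was tested on simulated data. Of 6418 identifiers 6140 matched RefSeq (R64); 275 of the others are tRNA genes. For single-exon genes, 97.6% of the lengths behind the TPM lay within 1% of R64, whose sequences and overlaps were used. The members and 49 gene lists were chosen with earlier results of these data known, and RPP1, an RNase P subunit, was taken out of the ribosomal protein list after its values were seen. Genes were named by a fixed rule: circuit genes, up to 15 largest differences each way with at least 50 counts and an interval wholly past 2-fold, the extremes and every gene past 2-fold of each list, all members of the 12 lists farthest from the median of all genes, the 10 most abundant past 1.5-fold and up to 10 each way past 2-fold in both pairs. Neighbours, paralogs, overlap partners, promoter genes and a few others were named after their values were seen. A list of mitochondrially encoded genes is not analysed here. Alternatives were other scalings, pseudocounts, filters, folds, thinning and removal of trends.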

Additional observations from a re-analysis of the deposited data

Results flagged for a closer look

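ZRT1 differed between the contrasts without and with ScRNAs. Its log2 ratio was 1.12 for byMM1736 over byMM1777, against -1.02 for byMM1832 over byMM1827, and the difference of the differences was not tested, as each strain has 1 library. CPP2, which overlaps YDR209C, had a log2 ratio of -6.73 for byMM1736 over byMM1777 at the floor of 3 counts, against 1.53 for byMM1832 over byMM1827, also not tested.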

How the results depend on the processing

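With 47 genes higher and 64 lower in byMM1736 than in byMM1777 as the base, the counts were 78 and 29 with TMM factors, 79 and 29 with median-ratio size factors, 77 and 29 when centred on the median of all genes, and 27 and 183 relative to ACT1. The cause is the scale itself, which moved the median of all genes by 0.22 with TMM factors, 0.22 with size factors and -0.20 with ACT1. A pseudocount of 1 TPM left 36 higher and 35 lower, a mean of at least 100 counts 27 higher and 37 lower, a 3-fold limit 10 higher and 11 lower, and an interval wholly past 2-fold 17 higher and 18 lower. Removing a running median over 300 genes gave 51 higher and 41 lower for length, 71 higher and 21 lower for GC content, and 70 higher and 28 lower for mean TPM. Taking byMM1827 in place of byMM1777, chosen after seeing the data, gave 14 higher and 23 lower. The 19 genes past 2-fold the same way in the ScRNA strains became 8 with a mean of at least 100 counts, 1 at 3-fold and 4 with intervals wholly past 2-fold. Of the 67 named genes past 2-fold, between 52 and 65 stayed past it under another scaling or a pseudocount of 1 TPM. Of 48 list medians, 27 changed sign with TMM factors. No paired analysis was possible because each strain has 1 library. One culture and 1 library per strain limit every value, and the intervals hold no biological spread.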
